A study of Mus musculus with 30 samples.

Results

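The genes described here encode fibroblast growth factors (FGFs), members of the EGF, PDGF, HGF, KIT and insulin-like growth factor families, the receptor tyrosine kinases these ligands bind, the Eph receptors with their ephrin ligands, and feedback and target genes of FGF signalling. They were taken from a list of 52 named genes, matched by symbol and not by any measured value to the probe sets of the arrays. Of the 52 genes, 47 had a probe set, out of 15964 genes measured in all, and these 47 were read by 97 of 36701 probe sets. Etv1, Areg, Nrg1, Ephb2 and Ephb4 had none under this rule and were not analysed here. A probe set is a group of short oligonucleotides meant to read 1 transcript together, although some probe sets can read several. Where a gene had several, the probe set with the highest mean over its 10 arrays represents the gene, and the others are given where they differ.

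The RNA was that of dorsal pancreata dissected from embryos of NMRI mice, an outbred strain, at 5 stages, embryonic day 12.5 (e12.5), e13.5, e14.5, e15.5 and e16.5. No genotype or treatment differs between the stages. Tissue was pooled by litter into 1 pool per stage (the sources used here do not state the number of litters). Each pool was labelled in 2 reactions, and each reaction was hybridised to the Affymetrix chips A, B and C of the murine genome U74 version 2 set, which gave 30 arrays.

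Receptor tyrosine kinases span the cell membrane, dimerise when a growth factor binds outside, and phosphorylate tyrosines that recruit adaptors inside the cell, which start the RAS-ERK and PI3K-AKT cascades. ERK activity in turn switches on Sprouty proteins and the phosphatase DUSP6, which dampen the same cascade, and ETS factors such as ETV4 and ETV5. In the embryonic pancreas, FGF10 made by the mesenchyme acts on FGFR2 of the epithelium and keeps its progenitors dividing, while EGF and PDGF family receptors are known for roles in epithelial growth and in mesenchyme.

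Array medians ran from 5.71 to 5.76 on chip A, 5.26 to 5.31 on chip B and 3.99 to 4.02 on chip C in log2 units, and the reactions of a pool correlated at 0.996 to 0.998 across probe sets. Since a stage is 1 pool read by 2 reactions, its SD is technical, and stage and pool cannot be told apart. In this bulk tissue, fewer cells of a type and less RNA per cell cannot be told apart. Pancreas markers Cpa1, Gcg and Ptf1a lay above the chip median at every stage and Pdx1 at 3 stages. Cell type markers moved over the same days: 10 of 10 acinar marker genes rose, and their summed linear value was 80602 at e16.5, against 3154 at e12.5.

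The first comparison asked which of the 47 genes rose or fell with embryonic day over the 5 stages, which does not require equal steps. A straight line was drawn through the 5 pool means against day, and its slope is given as the log2 change over 4 days. With limma and Benjamini-Hochberg adjustment over all probe sets, 4 of the 47 genes rose (Fgfr3, Egf, Pdgfa and Irs2), 15 fell and 28 did not pass an adjusted p of 0.05. Among all 15964 genes, 11.9% rose and 17% fell. The same shares stand beside the stage trend counts of single families and lists given below. The median change was -0.10 over the 47 genes and 0.02 over all genes. Receptors made up much of the falling group: of 19 receptor genes 1 rose and 8 fell, with a median change of -0.31, while of 20 ligand genes 2 rose and 3 fell, with a median of 0.03. Whether receptors and ligands differ was not tested. The stage mean was lower at every daily step in 11 of the 47 genes (23.4%), against 11.2% of all genes, and no gene of the 47 was higher at every step, against 8.11% of all genes.

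**Figure D1:**
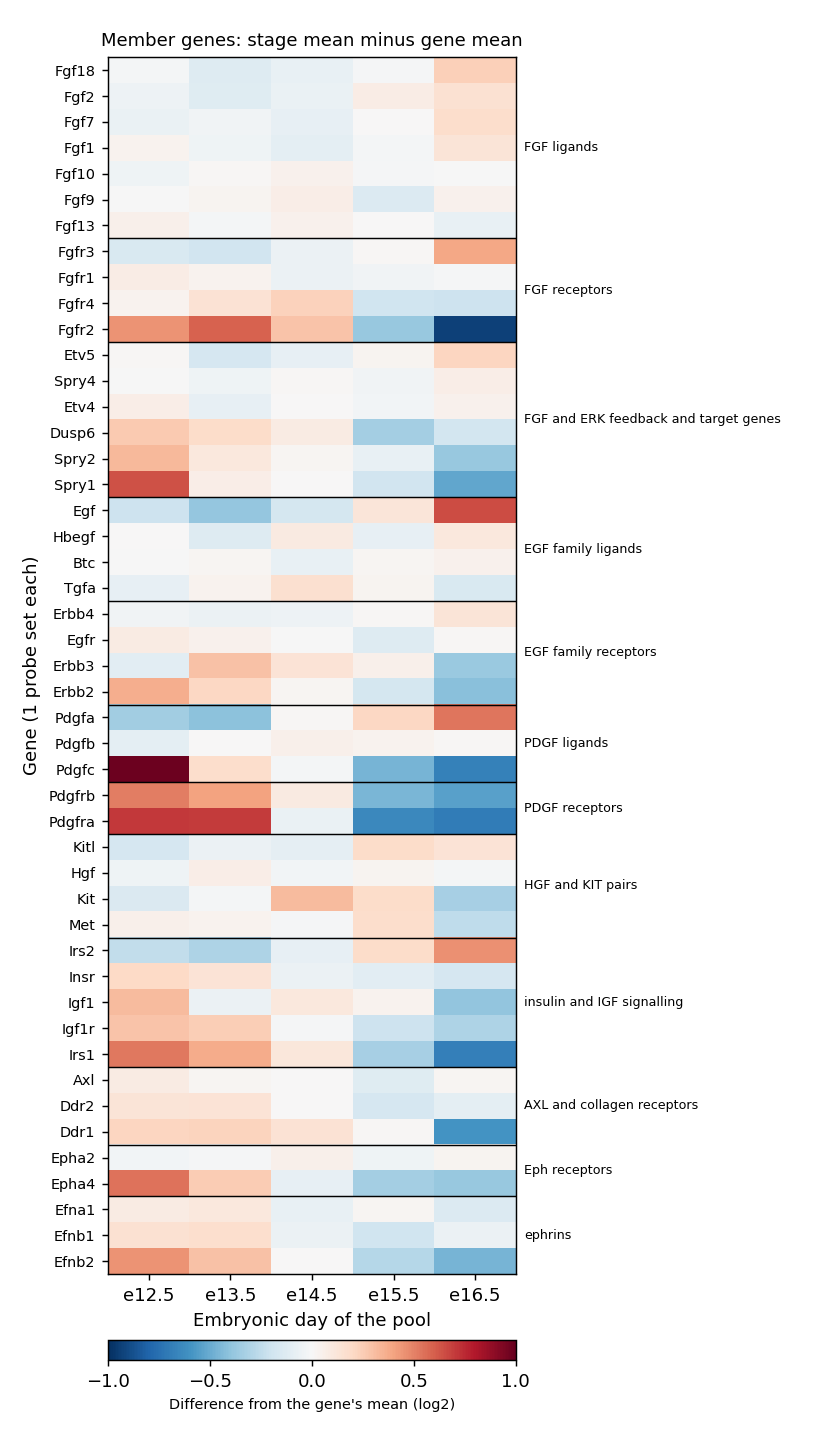
Stage mean of each of the 47 genes minus the gene's own mean over all stages (log2), with embryonic day across and genes grouped by family down the page; red is above and blue below the gene's mean. Pdgfc, Pdgfra, Spry1, Fgfr2 and Irs1 are blue at e16.5 and red at e12.5, Pdgfa, Egf and Irs2 are red at e16.5 and blue at e12.5, and the FGF ligand rows stay pale.

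**Figure D2:**
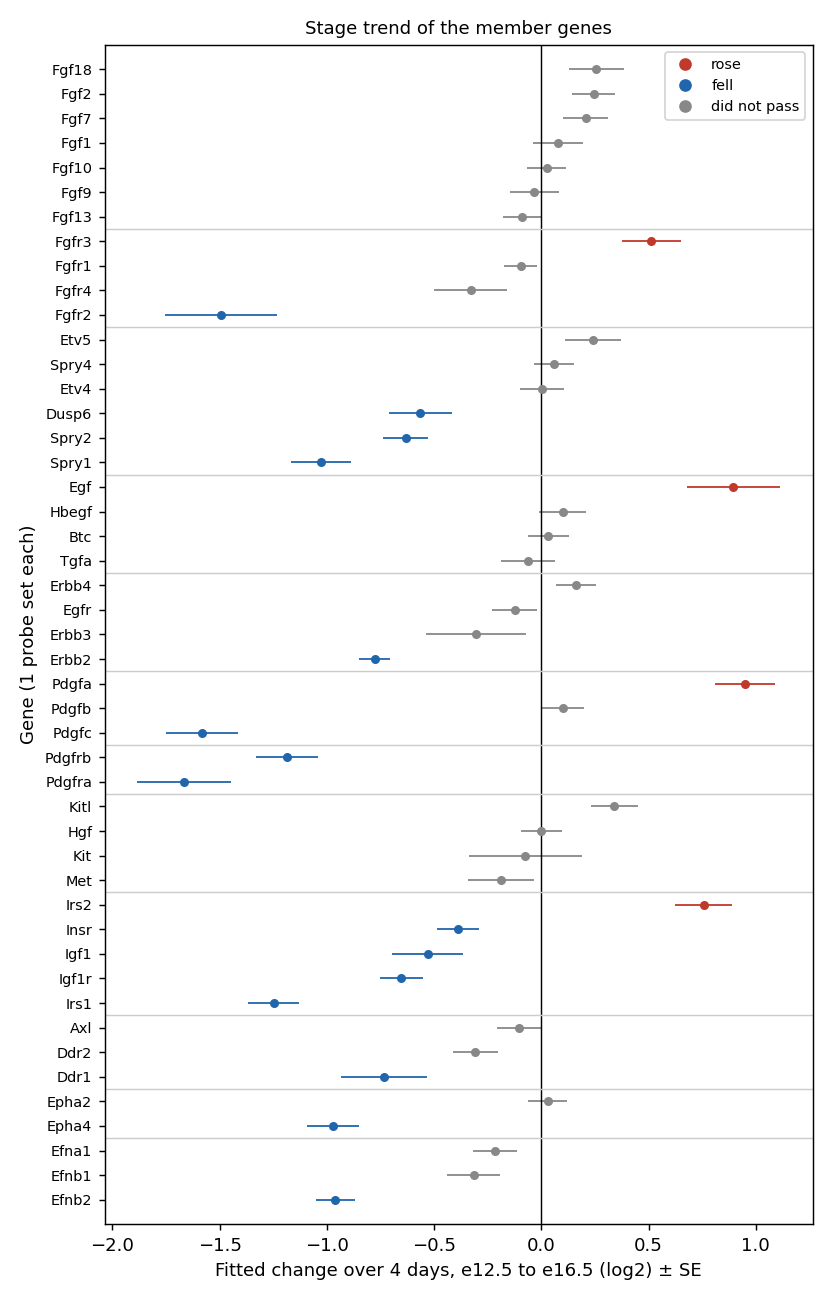
Fitted change over 4 days in log2 units for 1 probe set per gene, with points for the estimate, bars for ± 1 SE (n = 5 pools), red for the 4 genes that rose, blue for the 15 that fell and grey for the 28 that did not pass. The fall was deepest in Pdgfra (-1.67) and the rise highest in Pdgfa (0.95).

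Between the ends of the series, e16.5 against e12.5, a call needed an adjusted p under 0.05 and at least a 2-fold change. None of the 47 genes was called higher at e16.5, against 2.2% of all genes, and 6 were called lower (Fgfr2, Spry1, Pdgfc, Pdgfra, Pdgfrb and Irs1), against 4.25% of all genes. Without the fold minimum, 9 were higher and 22 lower at an adjusted p under 0.05, against 28.2% and 29.4% of all genes. These p-values rest on the spread between labelling reactions of a pool, hence the fold minimum. No member was called in any of the 4 daily steps, where 0.188% (e13.5 against e12.5), 0.175% (e14.5 against e13.5), 0.545% (e15.5 against e14.5) and 0.445% (e16.5 against e15.5) of all genes were called. With a 1.5-fold minimum 1 of the 47 genes was called at each step, against 1.08%, 0.802%, 2.09% and 3.27% of all genes in the same order. Of the 47 genes, 29 lay above their chip's median at every stage, 14 below it at every stage and 4 on either side. A signal below the median, with no detection call, is not shown to be above background, and a change measured there can be understated.

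None of the 7 FGF ligand genes passed the stage trend, and 6 of them were dim. Fgf10, the mesenchymal ligand of FGFR2, had stage means of 4.36, 4.41, 4.45, 4.39 and 4.40 from e12.5 to e16.5, below its chip's median throughout, and a fitted change of 0.02 (95% interval -0.19 to 0.24). Fgf7, another ligand of the same receptor, also lay below its chip's median and had means of 3.14 ± 0.06, 3.17 ± 0.01, 3.13 ± 0.04, 3.21 ± 0.06 and 3.38 ± 0.11 (SD, n = 2 reactions). Neither ligand passed the stage trend, and Fgf7 had a difference of 0.24 between e16.5 and e12.5, with a limma adjusted p of 0.0125 and less than 2-fold. Fgf1, Fgf2, Fgf13, whose product acts inside cells, and Fgf18 also lay below the chip median at every stage, with fitted changes of 0.08, 0.24, -0.09 and 0.26. Fgf2 passed when the first labelling reaction at e12.5 was left out (0.34, limma adjusted p = 0.0340).

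Fgf9, an epithelial and mesothelial ligand in other embryonic organs, was the FGF gene with signal above the chip median at every stage. Its brightest probe set had means of 5.93, 5.96, 5.998, 5.80 and 5.98 and a change of -0.03 (-0.30 to 0.23). A second probe set on the same chip had means of 5.76, 5.86, 5.93, 5.99 and 6.07, and there Fgf9 rose by 0.30 ± 0.09 (SE, n = 5 pools; limma adjusted p = 0.048). Its dim probe set on chip A had a change of -0.11 and did not pass. Of 17 other FGF family genes measured, 0 rose and 1 fell, against 11.9% and 17% of all genes. The gene that fell was Fgf11, by 0.36 ± 0.09 on the log2 scale.

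The 4 FGF receptor genes did not move together: Fgfr2 fell, Fgfr3 rose, and Fgfr1 and Fgfr4 did not pass. Fgfr2 read 8.52 and 8.46 in the reactions at e12.5, 8.57 and 8.68 at e13.5, 8.28 and 8.38 at e14.5, 7.73 and 7.59 at e15.5, and 7.05 and 7.16 at e16.5. All arrays at e15.5 and e16.5 lay below all earlier ones, and most of the fall came in the last 2 steps (-0.67 and -0.56). The fitted change was -1.49 ± 0.26, or 2.82-fold lower (SE, n = 5 pools; limma adjusted p = 0.01), and at e16.5 Fgfr2 was 2.61-fold lower than at e12.5. Without the e16.5 pool the slope gave -1.11 and did not pass (adjusted p = 0.085).

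The other probe sets of Fgfr2 fell less or did not pass. The second brightest, on the same chip, had means of 6.86, 7.04, 6.96, 6.56 and 6.38 and a change of -0.57 ± 0.18 (limma adjusted p = 0.064). Its profile also turned down after e14.5. A dim one fell by 0.54, and those on chip C had changes of 0.22 and 0.14 that did not pass. The sources used here do not say which splice forms each probe set reads. Epithelial markers are given for comparison, since FGFR2 is known as an epithelial receptor in this organ: of 8 measured, 4 rose and 1 fell, and their summed linear value was 2844 at e16.5, against 1666 at e12.5. Their part in the Fgfr2 result was not tested.

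Fgfr3 read 5.88 and 5.82 at e12.5, 5.92 and 5.71 at e13.5, 5.94 and 5.96 at e14.5, 6.05 and 5.98 at e15.5, and 6.37 and 6.41 at e16.5. It rose by 0.51 ± 0.14 (limma adjusted p = 0.038), and the e16.5 arrays were above all others. Leaving out the e13.5, e14.5 or e16.5 pool ended that call (changes of 0.48, 0.51 and 0.25, adjusted p = 0.104, 0.0562 and 0.239), as did leaving out the second reaction at e12.5 (0.49, adjusted p = 0.0515) or the first at e15.5 (0.50, adjusted p = 0.0534). Its probe set is built from fewer probes than usual, per its name, and another, dim one had a change of 0.05. Averaging them gave 0.28 (adjusted p = 0.0706).

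Fgfr4 had means of 6.23, 6.34, 6.43, 5.998 and 5.99 and a change of -0.33 (-0.74 to 0.07). The result for Fgfr1, a receptor found in the mesenchyme of many organs, depended on the probe set. Its brightest, on chip C and named as one that can read a gene family, had means of 7.09, 7.05, 6.96, 6.98 and 7.01 and a change of -0.10 (-0.28 to 0.08). On chip A, a probe set of the same class had means of 6.95, 6.58, 6.47, 6.30 and 6.05 and fell by 0.83 ± 0.10 (limma adjusted p = 0.0033). The remaining one had a change of 0.11 and did not pass, so no direction is settled for Fgfr1.

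**Figure D3:**
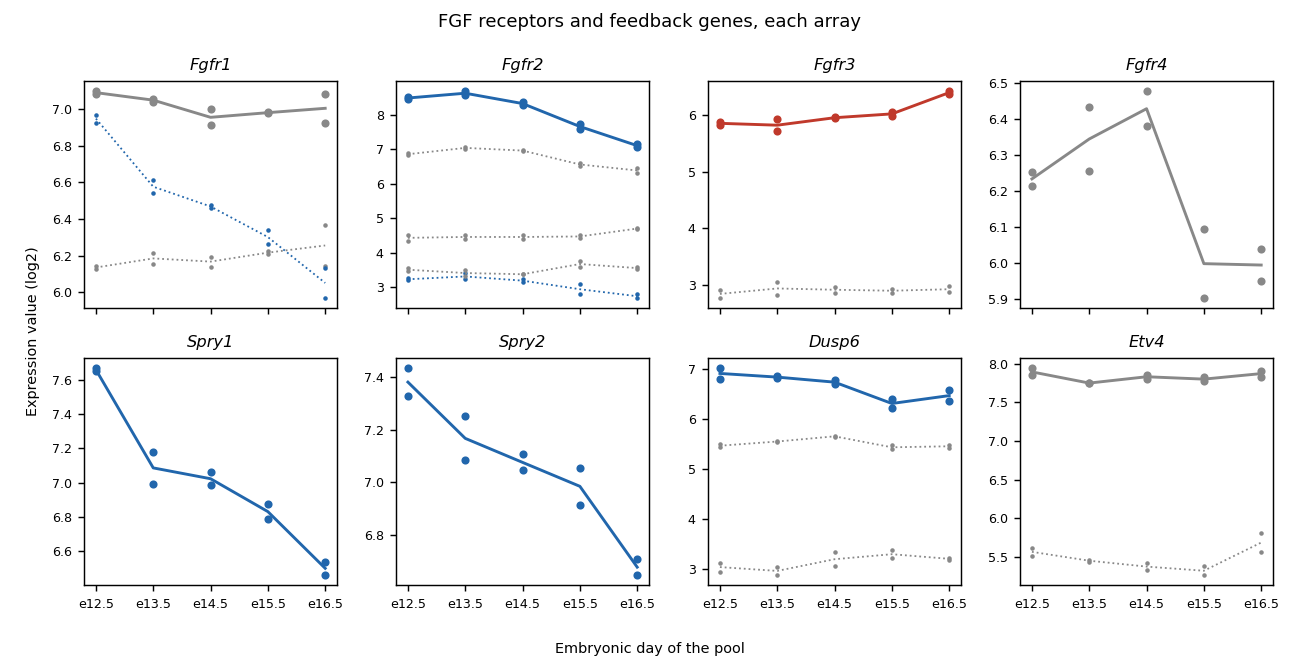
Log2 value on each array (points) and stage mean (lines) against embryonic day for the FGF receptor genes and 4 feedback and target genes; thick lines are the brightest probe set, dotted lines the others, and red, blue and grey mark a rise, a fall and no pass of the stage trend. Fgfr2 drops after e14.5, Spry1 and Spry2 step down at every stage, and the bright and the dotted lines of Fgfr1 part.

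Of 6 feedback and target genes of FGF and ERK signalling, 3 fell (Spry1, Spry2 and Dusp6), 0 rose and 3 did not pass. Spry1, which encodes a Sprouty inhibitor of receptor kinase signalling, read 7.67 and 7.65 at e12.5, 7.18 and 6.995 at e13.5, 7.06 and 6.99 at e14.5, 6.79 and 6.87 at e15.5, and 6.54 and 6.46 at e16.5. The largest step was the first (-0.57), and the e12.5 arrays stood above all others. Spry1 fell by 1.03 ± 0.14 on the log2 scale, or 2.04-fold (SE, n = 5 pools; limma adjusted p = 0.00226). Its relative Spry2 had means of 7.38, 7.17, 7.08, 6.99 and 6.68 and fell by 0.63 ± 0.11 (adjusted p = 0.00508), a call that ended without the e16.5 pool (-0.51, adjusted p = 0.0672).

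Because Spry1 and Spry2 fell together, the sequence around their starts is shown from RefSeq (GRCm38.p6), from 250 bases before the start to 50 after it. The Spry1 window is chr3:37639697-37639996 on the plus strand, and the Spry2 window is chr14:105896770-105897069 on the minus strand. Both strands were searched for 7 motifs, which were CGGAAGT for factors of the ETS family, GGGCGG (a GC box, bound by factors such as SP1), CCAAT (bound by NF-Y), TATAAA at which transcription can be positioned, TGTTTAC for FOXO proteins, TGACGTCA for CREB and its relatives, and CACGTG (an E box). Capitals mark each match, which is a description of letters and not a site.
Spry1: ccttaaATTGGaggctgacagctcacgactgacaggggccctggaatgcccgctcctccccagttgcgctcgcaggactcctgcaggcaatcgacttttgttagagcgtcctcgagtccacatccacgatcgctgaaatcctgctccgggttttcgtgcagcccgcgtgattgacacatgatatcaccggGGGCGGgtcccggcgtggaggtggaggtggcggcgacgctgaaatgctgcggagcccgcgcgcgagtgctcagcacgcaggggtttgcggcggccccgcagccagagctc
Spry2: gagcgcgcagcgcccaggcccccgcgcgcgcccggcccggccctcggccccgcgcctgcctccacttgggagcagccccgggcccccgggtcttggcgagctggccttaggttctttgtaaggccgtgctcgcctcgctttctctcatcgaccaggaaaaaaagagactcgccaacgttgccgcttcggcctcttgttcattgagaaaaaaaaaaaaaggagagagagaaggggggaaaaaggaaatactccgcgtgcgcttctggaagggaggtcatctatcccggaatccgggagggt

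The Spry1 window holds 1 CCAAT (on the other strand) and 1 GC box, which do not overlap, and the Spry2 window holds none of the 7 motifs. Of 32851 promoter windows of the same length, 37.4% hold CCAAT, 35.7% a GC box and 6.42% the ETS letters. Both windows are rich in G and C, 64.3% in Spry1 and 62.7% in Spry2.

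Dusp6, the ERK phosphatase gene, had means of 6.91, 6.84, 6.74, 6.31 and 6.47 and fell by 0.57 ± 0.15 (limma adjusted p = 0.0354). Another probe set above the chip median had a change of -0.06 (-0.33 to 0.22), and the call ended without the e12.5 pool (-0.61, adjusted p = 0.112), without the e13.5 pool (-0.54, adjusted p = 0.0954) and without any of 3 single reactions. It also ended with quantile normalization again (-0.50, adjusted p = 0.0517) and with its probe sets averaged (-0.15, adjusted p = 0.271). Spry4 (0.06, -0.16 to 0.28), Etv4 (0.00, -0.24 to 0.24) and Etv5 (0.24, -0.06 to 0.54) did not pass. Etv4 had means between 7.75 and 7.90 on a probe set made under relaxed probe rules, while Etv5 was dim, with a mean of 4.55 at e16.5, against 4.35 at e12.5, and it passed when the e12.5 pool was left out (0.51, adjusted p = 0.0424).

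Feedback inhibitors outside the members were counted from a list of 20, of which 1 rose and 4 fell, against 11.9% and 17% of all genes. Dusp9, another ERK phosphatase gene, fell by 1.98 ± 0.23, Cbl, which tags active receptors for degradation, by 1.01 ± 0.09, Rasa3 by 0.73 ± 0.11 and Il17rd, an FGF antagonist, by 0.50 ± 0.10. The Dusp9 value comes from 1 of its 8 probe sets, which is named as one that can read a gene family. Il17rd lay below its chip's median at every stage, and Rasa3 lay above its own at 3 stages. Of 18 immediate early and ETS genes, 1 rose (Ehf, 0.65 ± 0.18) and 2 fell (Fosl2, -1.08 ± 0.10, and Jun, -0.95 ± 0.16).

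Among 4 EGF family ligand genes, Egf rose and 3 did not pass. Egf read 4.72 and 4.68 at e12.5, 4.58 and 4.46 at e13.5, 4.77 and 4.71 at e14.5, 4.99 and 5.07 at e15.5, and 5.67 and 5.47 at e16.5. It lay below its chip's median at every stage, so the level is not shown to be above background. It rose by 0.90 ± 0.22 (SE, n = 5 pools; limma adjusted p = 0.0294), with the e16.5 arrays above all others, and no longer passed without the e16.5 pool (0.48, adjusted p = 0.211) or the e13.5 pool (0.80, adjusted p = 0.075). Its other probe sets had changes of 0.30 and -0.03.

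Hbegf, heparin-binding EGF, was above the median of chip C on all 3 of its probe sets there, with changes of 0.10, 0.09 and 0.15 that did not pass. Tgfa had a change of -0.06 on its brightest probe set, while a dim one on chip A fell by 0.31 ± 0.09 (limma adjusted p = 0.0482). Btc, betacellulin, lay far below its chip's median, with means between 2.95 and 3.07.

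Erbb2, the receptor that pairs with the other EGF family receptors, was the gene among these 4 receptors that fell. It read 7.38 and 7.31 at e12.5, 7.23 and 7.15 at e13.5, 6.99 and 7.01 at e14.5, 6.84 and 6.78 at e15.5, and 6.61 and 6.52 at e16.5. No array of a later stage overlapped an earlier stage, and the steps were near equal, from -0.16 to -0.24. Erbb2 fell by 0.78 ± 0.07 on the log2 scale, or 1.71-fold (SE, n = 5 pools; limma adjusted p = 0.000683).

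Erbb3, whose product binds neuregulins and is known in Schwann cells and epithelium, peaked early instead, with means of 7.41, 7.81, 7.65, 7.57 and 7.15. Its fitted change was -0.31 (-0.86 to 0.25) and did not pass with all pools, and without the e12.5 pool it was -0.83 (limma adjusted p = 0.0281). Egfr was below the chip median on each of its 5 probe sets, with changes from -0.75 to 0.19, and Erbb4 (0.16, -0.06 to 0.39) was dim as well. Of 7 neural and Schwann cell markers, 5 fell and 0 rose. Their summed linear value was 959 at e16.5, against 1672 at e12.5, and their part in the Erbb2 and Erbb3 values was not tested.

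The PDGF genes held the deepest falls and the highest rise of the 47, and ligand genes went in opposite directions. Pdgfa, which encodes a ligand of PDGFRA, read 7.71 and 7.67 at e12.5, 7.65 and 7.61 at e13.5, 8.04 and 8.06 at e14.5, 8.27 and 8.22 at e15.5, and 8.59 and 8.55 at e16.5. The e16.5 arrays lay above all others and the e13.5 arrays lowest. Pdgfa rose by 0.95 ± 0.14, or 1.93-fold (SE, n = 5 pools; limma adjusted p = 0.0055). A dim probe set on chip B had a change of 0.39 that did not pass.

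Pdgfc, another ligand of the same receptor, read 6.36 and 6.10 at e12.5, 5.46 and 5.38 at e13.5, 5.25 and 5.21 at e14.5, 4.76 and 4.81 at e15.5, and 4.57 and 4.58 at e16.5. It fell at each step, most at the first (-0.81), and the arrays of neighbouring stages did not overlap. The fitted change was -1.58 ± 0.17, or 3-fold lower (limma adjusted p = 0.000911). From e14.5 on Pdgfc lay below its chip's median, where the fall can be understated, and a probe set near the median of chip C had a change of -0.16 that did not pass. Pdgfb, known in endothelium as the ligand of PDGFRB, had means between 7.53 and 7.68 and a change of 0.10 (-0.13 to 0.33).

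Both PDGF receptor genes fell. Pdgfra, the receptor of mesenchymal cells, read 9.09 and 9.18 at e12.5, 9.13 and 9.11 at e13.5, 8.34 and 8.38 at e14.5, 7.82 and 7.74 at e15.5, and 7.70 and 7.74 at e16.5. The arrays of e12.5 and e13.5 overlapped, and so nearly did those of e15.5 and e16.5, so the fall lay in the 2 middle steps (-0.76 and -0.58). Pdgfra fell by 1.67 ± 0.22 on the log2 scale, or 3.17-fold (SE, n = 5 pools; limma adjusted p = 0.00384). A second probe set above the chip median, with means of 6.93, 6.86, 6.91, 6.88 and 7.03, had a change of 0.08 (-0.15 to 0.32).

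Pdgfrb, the receptor of pericytes and other mural cells, read 5.70 and 5.94 at e12.5, 5.77 and 5.66 at e13.5, 5.42 and 5.38 at e14.5, 4.78 and 4.93 at e15.5, and 4.76 and 4.78 at e16.5. It followed the course of Pdgfra, with its largest step from e14.5 to e15.5 (-0.55), and fell by 1.19 ± 0.14 (limma adjusted p = 0.00289). It was above its chip's median only at e12.5 by the stage mean and has 1 probe set. At e16.5 it was 2.07-fold lower than at e12.5, and without the second reaction at e12.5 the difference was -0.93, under the 2-fold minimum.

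Of 10 mesenchymal markers other than these receptors, 2 rose (Dcn and Postn), 2 fell (Tcf21 and Twist1) and 6 did not pass. Their summed linear value was 5021, 5202, 5835, 5109 and 4599 from e12.5 to e16.5, with Vim and Twist1 below the chip median at every stage. The sum was highest at e14.5, while the fitted changes of single markers ran from -2.57 to 1.66. The part of these cells in the fall of Pdgfra and Pdgfrb was not tested. Of 8 endothelial markers, 1 rose and 3 fell.

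**Figure D4:**
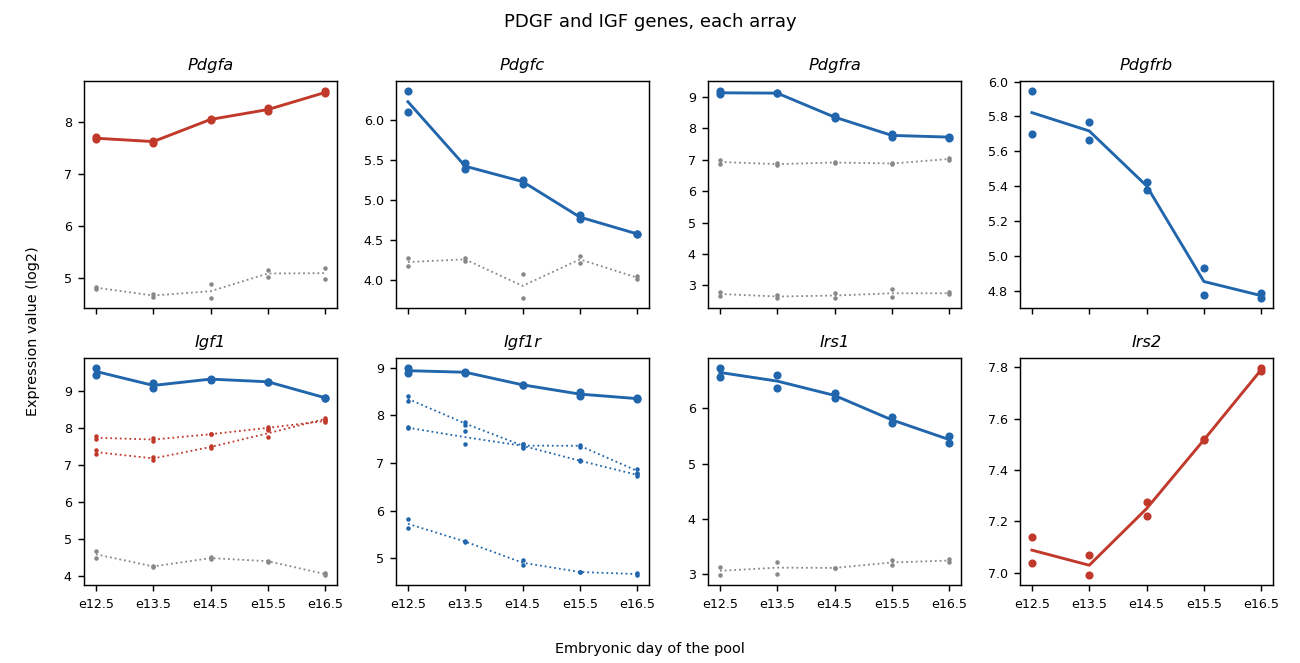
Log2 value on each array (points) and stage mean (lines) against embryonic day for Pdgfa, Pdgfc, Pdgfra, Pdgfrb, Igf1, Igf1r, Irs1 and Irs2. Pdgfb and Insr are not drawn. Thick lines are the brightest probe set, dotted lines the others, and red, blue and grey mark a rise, a fall and no pass. Pdgfa and Irs2 climb while Pdgfc, both PDGF receptor genes and Irs1 drop, and the Igf1 panel holds lines of opposite slope.

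None of the 4 HGF and KIT genes passed the stage trend. Kit, the receptor of stem cell factor, had an arched course that a line misses, with 6.08 and 5.97 at e12.5, 6.09 and 6.19 at e13.5, 6.51 and 6.44 at e14.5, 6.31 and 6.37 at e15.5, and 5.87 and 5.79 at e16.5. The e14.5 arrays were the highest and the e16.5 arrays the lowest. At e14.5 Kit was 0.55 ± 0.06 above the mean of both ends (SE; limma adjusted p = 0.000136), less than the 2-fold minimum, and its fitted change over 4 days was -0.07 (-0.71 to 0.56).

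Its ligand gene Kitl was dim, with means of 4.81, 4.92, 4.89, 5.16 and 5.12 and a change of 0.34 (0.08 to 0.60; limma adjusted p = 0.0639). Kitl passed without the second reaction at e12.5 (0.42, adjusted p = 0.0429) or at e16.5 (0.39, adjusted p = 0.0442). Met, the HGF receptor, had means of 5.74, 5.72, 5.67, 5.86 and 5.43 and a change of -0.19 (-0.54 to 0.16). Hgf itself lay far below its chip's median, with means between 2.79 and 2.90 and a change of 0.00 (-0.23 to 0.23).

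All 5 insulin and insulin-like growth factor genes passed, with Irs2 rising and the others falling on the brightest probe set. The adaptors that pass the signal from these receptors to PI3K moved in opposite directions. Irs1 read 6.72 and 6.57 at e12.5, 6.61 and 6.37 at e13.5, 6.18 and 6.28 at e14.5, 5.73 and 5.85 at e15.5, and 5.50 and 5.37 at e16.5. Irs1 fell by 1.25 ± 0.12 on the log2 scale, or 2.38-fold (SE, n = 5 pools; limma adjusted p = 0.000616), and the e16.5 arrays lay below all others. A dim probe set of Irs1 on chip A had a change of 0.19 that did not pass.

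Irs2 read 7.14 and 7.04 at e12.5, 7.07 and 6.99 at e13.5, 7.28 and 7.22 at e14.5, 7.52 and 7.52 at e15.5, and 7.80 and 7.79 at e16.5. From e14.5 on each stage stood above all earlier arrays, while e12.5 and e13.5 overlapped. Irs2 rose by 0.76 ± 0.13, or 1.69-fold (limma adjusted p = 0.0102), and has 1 probe set. Without the e16.5 pool the change was 0.60 (adjusted p = 0.0775).

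The windows at the starts of the adaptor genes are printed because they moved apart, with the same motifs in capitals. The Irs1 window is chr1:82291390-82291689 on the minus strand and the Irs2 window is chr8:11008880-11009179 on the minus strand (RefSeq, GRCm38.p6).
Irs1: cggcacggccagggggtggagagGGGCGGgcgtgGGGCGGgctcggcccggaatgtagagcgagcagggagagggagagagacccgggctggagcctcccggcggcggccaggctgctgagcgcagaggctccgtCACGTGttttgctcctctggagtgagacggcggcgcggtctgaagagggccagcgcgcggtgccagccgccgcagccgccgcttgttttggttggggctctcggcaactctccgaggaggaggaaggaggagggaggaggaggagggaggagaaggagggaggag
Irs2: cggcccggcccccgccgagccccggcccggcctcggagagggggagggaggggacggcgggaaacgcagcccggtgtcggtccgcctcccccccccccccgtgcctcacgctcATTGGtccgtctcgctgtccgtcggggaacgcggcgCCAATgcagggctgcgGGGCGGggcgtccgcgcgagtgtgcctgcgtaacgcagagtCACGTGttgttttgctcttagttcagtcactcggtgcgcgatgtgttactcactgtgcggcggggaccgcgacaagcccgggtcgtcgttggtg

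Irs1 holds 2 GC boxes and 1 E box, and Irs2 holds 1 GC box, 2 CCAAT motifs and 1 E box. None of these matches overlap. The E box letters are in 7.15% of all windows, and each adaptor window holds 1. The windows are 71.3% and 72% G and C in Irs1 and Irs2.

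Igf1r, the receptor of insulin-like growth factors, fell on each of its 4 probe sets, which lie on all 3 chips. The brightest had means of 8.94, 8.91, 8.64, 8.45 and 8.35 and fell by 0.65 ± 0.10 (limma adjusted p = 0.00637). The others fell by 1.40 ± 0.15 (means of 8.35, 7.83, 7.36, 7.36 and 6.83), by 1.10 ± 0.15 and by 0.99 ± 0.08. The size of the fall therefore ran from 1.57-fold to 2.63-fold with the probe set, and its direction was shared.

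Insr, the insulin receptor, fell by 0.39 ± 0.10 (limma adjusted p = 0.0237) and by 0.54 ± 0.09 on another probe set. Another bright one had a change of -0.02 (-0.26 to 0.22), and a dim one did not pass. Leaving out a pool ended the call for e12.5 (-0.38, adjusted p = 0.103), e13.5 (-0.37, adjusted p = 0.0657) and e16.5 (-0.45, adjusted p = 0.0944), as did quantile normalization of the arrays again (-0.18, adjusted p = 0.225).

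Igf1 gave opposite answers on different chips. The brightest probe set, on chip B, read 9.62 and 9.46 at e12.5, 9.22 and 9.10 at e13.5, 9.32 and 9.34 at e14.5, 9.26 and 9.26 at e15.5, and 8.84 and 8.82 at e16.5. It fell by 0.53 ± 0.16 (limma adjusted p = 0.0494), and most of the alternatives that leave out an array or a pool ended that call, for example -0.27 without the e16.5 pool (adjusted p = 0.442). On chip A, 2 bright probe sets rose, by 0.49 ± 0.11 (means of 7.75, 7.70, 7.84, 8.02 and 8.20; adjusted p = 0.023) and by 0.99 ± 0.19 (means of 7.36, 7.19, 7.50, 7.87 and 8.26; adjusted p = 0.0139). No direction is settled for Igf1.

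Of 12 other genes of the insulin-like growth factor system, 1 rose and 7 fell, against 11.9% and 17% of all genes. The 4 largest falls were in Grb10, an adaptor that inhibits these receptors (-2.77 ± 0.62), and in the binding protein genes Igfbp2 (-1.67 ± 0.18), Igfbp3 (-1.50 ± 0.09) and Igfbp4 (-1.18 ± 0.11). Among 16 PI3K and AKT genes, 0 rose and 5 fell, with Gsk3b at -0.79 ± 0.10, Pik3r1 at -0.78 ± 0.10, Mtor at -0.53 ± 0.10 and Tsc2 at -0.45 ± 0.11.

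Ddr1, an epithelial receptor for collagen, fell by 0.73 ± 0.20 (SE, n = 5 pools; limma adjusted p = 0.0417). It read 7.62 and 7.63 at e12.5, 7.65 and 7.63 at e13.5, 7.56 and 7.56 at e14.5, 7.44 and 7.42 at e15.5, and 6.66 and 6.97 at e16.5. The last step made up most of the fall (-0.61), and the reactions at e16.5 also differed most from each other. The call ended without the e16.5 pool (-0.27, adjusted p = 0.207), the e13.5 pool (-0.71, adjusted p = 0.103) or the second e16.5 reaction (-0.86, adjusted p = 0.0506), and with arrays centred on their medians (-0.70, adjusted p = 0.0517). Ddr2, the collagen receptor of mesenchyme, had a change of -0.31 (-0.56 to -0.06; adjusted p = 0.0747), and Axl, a receptor of GAS6, was dim with a change of -0.11 (-0.35 to 0.14).

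In the Eph and ephrin family, 1 of 2 receptor genes and 1 of 3 ligand genes fell, and none rose. Efnb2, the ephrin that marks arterial endothelium and also signals in its own cell, read 6.83 and 7.09 at e12.5, 6.79 and 6.82 at e13.5, 6.50 and 6.53 at e14.5, 6.30 and 6.16 at e15.5, and 6.09 and 6.01 at e16.5. Efnb2 fell by 0.96 ± 0.09 on the log2 scale, or 1.95-fold (SE, n = 5 pools; limma adjusted p = 0.0014). The arrays of e14.5, e15.5 and e16.5 each lay below those of the stage before. The summed endothelial markers were 736 at e16.5, against 800.0 at e12.5, and their part in the Efnb2 result was not tested.

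Epha4, known from axon guidance and boundary formation, had means of 5.93, 5.64, 5.31, 5.05 and 5.01 and fell by 0.97 ± 0.12 (limma adjusted p = 0.00322), with only the e12.5 mean above the chip median. Its other probe sets, both dim, had changes of 0.01 and 0.08. Epha2 (0.03, -0.19 to 0.25), Efna1 (-0.21, -0.46 to 0.03) and Efnb1 (-0.32, -0.62 to -0.02; adjusted p = 0.113) did not pass. Among 14 other Eph and ephrin genes, 0 rose and 4 fell, against 11.9% and 17% of all genes. Efna5 fell by 1.83 ± 0.16, Epha3 by 1.25 ± 0.14, Efna4 by 1.12 ± 0.12 and Efna2 by 0.69 ± 0.09.

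A peak or dip at the middle stage was looked for as e14.5 against the mean of e12.5 and e16.5. None of the 47 genes reached the 2-fold minimum, against 0.313% of all genes. At an adjusted p under 0.05 alone, 6 were higher at e14.5 and 3 lower, against 9.06% and 6.74% of all genes. Kit stood highest above its ends, followed by Fgfr2 (0.53 ± 0.06), Erbb3 (0.37 ± 0.05), Ddr1 (0.33 ± 0.07), Fgfr4 (0.31 ± 0.07) and Tgfa (0.28 ± 0.06). In Fgfr2 and Ddr1 this is the shape of a fall that came late, since both were near their e12.5 value at e14.5. Egf (-0.40 ± 0.07), Etv5 (-0.20 ± 0.06) and Irs2 (-0.19 ± 0.05) were lower at e14.5.

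Probe sets of 1 gene did not always give 1 answer, and 27 of the 47 genes had over 1. Of the 12 of these that passed, another probe set passed the same way in 3 (Fgfr2, Igf1r and Insr), the other way in 1 (Igf1), and in 8 none other passed. In 4 of the 12, another probe set above its chip's median at every stage did not pass (Pdgfra, Fgfr2, Dusp6 and Insr). The other 7 genes that passed have 1 probe set: Spry1, Spry2, Erbb2, Pdgfrb, Irs2, Ddr1 and Efnb2. In 3 genes that did not pass, another probe set did (Fgfr1, Fgf9 and Tgfa).

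**Figure D5:**
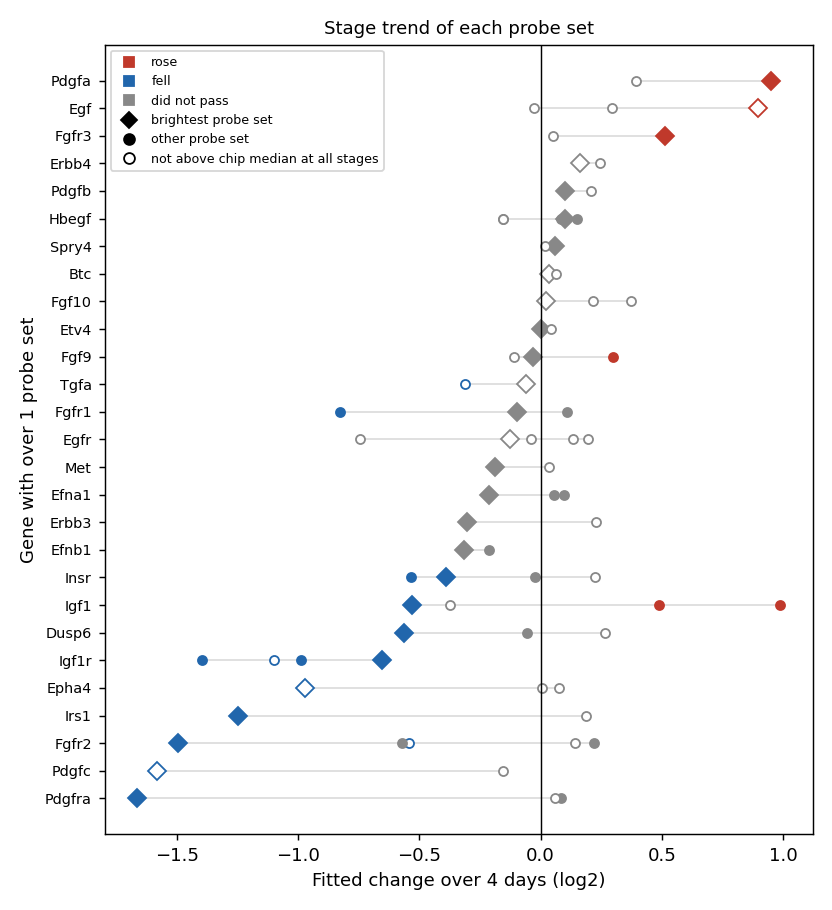
Fitted change over 4 days (log2) of every probe set of the 27 genes that have over 1; diamonds are the brightest probe set, circles the others, hollow symbols lie below the chip median at 1 or more stages, and red, blue and grey mark a rise, a fall and no pass. All 4 symbols of Igf1r lie left of 0, while those of Igf1 and Fgfr1 fall on both sides.

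Related genes outside the members were counted from lists that hold no member. They cover further ligands, receptors and binding proteins, signal transducers, feedback inhibitors, target genes and heparan sulfate genes. In all, 165 such genes were measured, of which 6 rose and 39 fell, against 11.9% and 17% of all genes. Their median change was -0.05. Of 18 RAS and ERK transducers, 0 rose and 5 fell, led by the phosphatase gene Ptpn11 (-1.16 ± 0.15), Nras (-1.07 ± 0.20), Crk (-0.88 ± 0.13) and Crkl (-0.78 ± 0.14). The Crk probe set is named as one that can read a gene family, and Crkl lay above its chip's median at only 2 stages. Of 18 genes for heparan sulfate carriers and enzymes, 0 rose and 8 fell. Among these were the glypican genes Gpc6 (-2.49 ± 0.24), Gpc2 (-2.30 ± 0.21) and Gpc1 (-1.21 ± 0.14) and the sulfatase gene Sulf1 (-1.63 ± 0.11). Of 20 other receptor kinase genes, 2 rose (Ret, 0.68 ± 0.19, and Flt3, 0.44 ± 0.11) and 3 fell, near the shares of all genes. Mertk (-0.89 ± 0.14) and Ptk7 (-0.87 ± 0.13) were among those that fell. Of 12 other EGF, PDGF and HGF family genes, 1 rose, Mst1 (0.99 ± 0.22), and 0 fell.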

How the data were processed

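Embryonic dorsal pancreas was measured at 5 stages on 3 chips, 10 arrays per chip, with 2 labelling reactions of 1 pool per stage. The authors deposited log2 values from RMA, as the submitters' processing notes name it; the software and version are not given in the sources used here, and the log base was inferred from the range of the values. RMA corrects background, equalises array distributions and combines probes, which removes differences in total RNA. The values carry no detection calls. Each chip was treated as normalized on its own, and levels of different chips were compared only when a gene's probe set was chosen. Precision is limited by having 1 pool per stage, since the 2 reactions of a pool show only technical spread.

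Probe sets were named from the platform annotation, with symbols updated by Entrez identifier to RefSeq GRCm38.p6: 29131 had 1 symbol, 724 several and 6846 none here, and those with several named no gene. Promoter windows came from RefSeq tables of that build. Member windows on chr18 were left out, and 38 of the 47 genes had 1 or more of the others. Name suffixes mark probe sets that can read a family or a common group of transcripts, or that were built under relaxed rules or incomplete; 5 of the 47 genes rest on such a probe set (Fgfr1, Insr, Fgfr3, Hbegf and Etv4).

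Tests used limma 3.58.1 in R 4.3.3. The stage trend was a line over day through the 5 pool means of a chip; contrasts came from the 10 arrays with stage as a factor and needed at least 2-fold. P-values were adjusted by the Benjamini-Hochberg method over the 3 chips together at a threshold of 0.05. The code was tested on simulated data. Any member could be named, and of each further list the 4 largest passing slopes were. Genes of the further lists are given on their brightest probe set only. The members, lists, tests and alternatives were chosen with earlier results of these data known. Alternatives were other scalings, only bright probe sets, a prior variance that follows intensity, the mean of a gene's probe sets, adjustment within a chip, other fold minimums, the replicate number as a block, and leaving out each array and each pool. No array was left out of the main results.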

Additional observations from a re-analysis of the deposited data

How the results depend on the processing

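Of the 19 genes that passed the stage trend, 10 passed in every alternative other than a 2-fold minimum, of up to 22 per gene, and of the 28 that did not pass, 22 passed in none. No value turned its sign while past the threshold. The trend gave 4 rising and 15 falling genes. The rising count was 2 without the e13.5 pool, 1 without the e16.5 pool, and 0 with a 2-fold minimum, which left 6 falling. Leaving out 1 array gave 3 to 5 rising and 12 to 15 falling. Quantile normalization again gave 4 and 12, where 2130 and 2485 of all 15964 genes rose and fell. Median centring gave 4 and 14, where 1913 and 2610 of all genes did, against 1902 and 2709 in the main run. Counts over all genes were not made for settings that leave out an array or a pool, or for the replicate block. For e16.5 against e12.5, a 1.5-fold minimum gave 3 higher and 13 lower genes (5.68% and 12.5% of all genes) and no minimum 9 and 22. Each daily step had 1 call with a 1.5-fold minimum, and 5, 4, 10 and 14 with none, in order of stage, against 14.6%, 4.6%, 14% and 26.2% of all genes. With no minimum e14.5 against both ends had 9 (15.8% of all genes). With a gene's probe sets averaged within its chip, Fgfr2 (-0.78) and Pdgfra (-0.43) no longer reached 2-fold, nor did Spry1 after quantile normalization again (-0.996), and Efnb2 reached it without the first reaction at e12.5 (-1.04). The replicate block, fitted to single arrays rather than pool means, gave 5 rising and 17 falling, adding Kitl, Ddr2 and Efnb1. It counts the reactions of a pool as separate samples, so its smaller p-values do not cover the spread between pools. Within a chip, same-numbered arrays of different stages did not deviate together (correlations of -0.18 to 0.11 over 30 pairs of stages and chips). The numbers therefore do not pair arrays across stages, and pairing between chips was not checked. One pool per stage and signal below the chip median in 14 genes limit what could be detected.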

Other observations

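The largest daily step came at different stages. At a 1.5-fold minimum and a limma adjusted p under 0.05, 1 of the 47 genes was called at each step: Pdgfc (-0.81) at e13.5 against e12.5, Pdgfra (-0.76) at e14.5 against e13.5, Fgfr2 (-0.67) at e15.5 against e14.5 and Ddr1 (-0.61) at e16.5 against e15.5. A share of 1 in 47 lies close to that of all genes at these steps, which was 1.08%, 0.802%, 2.09% and 3.27% in order of stage. Dusp6 also had its largest step at e15.5 against e14.5 (-0.43), and so did Fgfr4 (-0.43), which did not pass the stage trend.

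With member windows on chr18 left out, 38 of the 47 genes have a promoter sequence, with 51 windows between them. The windows of all genes were not filtered in this way. A GC box was present in 58.8% of these windows, against 35.7% of all 32851, CCAAT in 29.4% against 37.4%, TATAAA in 7.84% against 13.6%, the FOXO letters in 9.8% against 3.65%, the CRE letters in 1.96% against 1.79% and the E box in 7.84% against 7.15%. The ETS letters were in 1 of the 51 windows, an alternative start of Egf (1.96% against 6.42%). Windows of 1 gene can overlap, and no test was run.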
